A study of Mus musculus with 386 samples.

Results

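Lactate dehydrogenase (LDH) interconverts pyruvate and lactate while exchanging NADH and NAD+, and the mouse has several genes for it. Described here are Ldha and Ldhb, which encode the common subunits, Ldhc, which encodes the subunit of testis and sperm, and Ldhd, which encodes an unrelated mitochondrial enzyme for D-lactate. The 4 genes were taken by name out of 54658 gene rows, because an earlier account of these data had shown Ldha and Ldhb at opposite ends between stages. Their levels by stage and the per-cell ratio of Ldhb to Ldha are therefore descriptions of the pattern they were chosen for, and nothing is tested on them.

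Mouse ovaries were dissociated, germ cells were collected from them manually, and 1 Smart-seq2 library was made from each cell. The labels give 3 stages, E17.5 late in gestation and P2.5 and P6.5 in the first week after birth (E and P stand for days of embryonic and postnatal life). The series holds 386 libraries, with 22 at E17.5, 47 at P6.5 and the remainder at P2.5. All cells are labelled female germ cell, and the sources used here give no genotype, strain, treatment, animal, litter or number of pooled ovaries. A stage was therefore treated as 1 sample made of many cells, and no p-value was computed.

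Active LDH is a tetramer of subunits. LDHA-rich forms, typical of muscle and of fast glycolysis, are classically described as working mainly towards lactate, and LDHB-rich forms, typical of heart, mainly towards pyruvate. Mouse oocytes are known for very high LDH activity of the LDHB type, and growing oocytes use pyruvate as their main fuel and depend on the surrounding granulosa cells for much of it.

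The libraries held between 435560 and 23982709 gene counts each, with stage medians of 6394860, 6181610 and 8596800. Among the P2.5 libraries, 24 pairs were so alike that each was summed as 1 cell, which left 362 cells in all. Germ cell markers (Ddx4, Dazl, Dppa3, Mael, Taf4b and Sycp3) summed to medians of 3228, 3876 and 5156 CPM per cell at the 3 stages, where CPM are counts scaled to 1000000 per library. In E17.5 libraries 8, 10, 15 and 16 they summed to between 246.6 and 705 CPM, against 1175 to 5294 CPM in the other 18, so stage ratios from E17.5, the Ldhb share and counts of list genes are also given without these 4. Markers of other cell types also stood apart at E17.5: erythroid markers had a median of 1735 CPM per cell against 9.395 and 0.988 CPM at P2.5 and P6.5, mast cell markers other than Kit reached 111912 CPM in library 10, and granulosa and pregranulosa markers reached 1959 CPM in library 18. Their part in the stage differences was not tested.

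On the mm10 build (GRCm38, GENCODE M21), Ldha lies at chr7:46841475-46855627 on the plus strand and Ldhc at chr7:46861203-46878142 on the same strand, 5575 bases downstream. Ldhb lies at chr6:142490249-142507957 on the minus strand, and Ldhd at chr8:111623785-111630374, also on the minus strand. The 250 bases before the RefSeq start (GRCm38.p6) are shown for Ldhb and Ldha, whose levels went opposite ways. They are written 5′ to 3′ on the gene's strand, with each CACGTG, or its 5-letter part ACGTG or CACGT, in capitals. CACGTG is the E-box that MYC and MAX proteins bind, and ACGTG is a core of the hypoxia response element.
Ldhb, chr6:142507958-142508207, minus strand: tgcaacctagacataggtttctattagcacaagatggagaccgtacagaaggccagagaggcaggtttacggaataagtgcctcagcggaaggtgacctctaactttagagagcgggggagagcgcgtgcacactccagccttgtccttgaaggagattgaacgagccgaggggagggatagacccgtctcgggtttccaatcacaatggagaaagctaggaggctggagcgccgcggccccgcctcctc
Ldha, chr7:46845554-46845803, plus strand: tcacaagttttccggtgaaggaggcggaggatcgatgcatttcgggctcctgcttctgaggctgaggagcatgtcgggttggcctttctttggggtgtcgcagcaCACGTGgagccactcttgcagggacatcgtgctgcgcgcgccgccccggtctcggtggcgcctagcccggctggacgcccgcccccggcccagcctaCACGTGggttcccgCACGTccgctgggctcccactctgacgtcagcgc
The Ldha window held 2 CACGTG and 5 starts of ACGTG or CACGT, counting overlaps and both strands, and the Ldhb window held 0 of either. For GCGTG or its reverse CACGC, another core of the hypoxia response element, it was the other way, with 1 in the Ldhb window and 0 in this Ldha window. Of 32851 promoter windows of this length, 6.02% held CACGTG, 16.6% held ACGTG or CACGT, and 28.2% held GCGTG or CACGC. Bases G and C made up 67.2% of the Ldha window and 56.4% of the Ldhb window, and the dinucleotide CG occurred 25 and 14 times. A second, downstream RefSeq start of Ldha (window chr7:46846832-46847081) had no ACGTG or CACGT in its window, and neither Ldhc window had one. Of GCGTG or CACGC, this second Ldha window held 1, as the Ldhb window did, and the Ldhc windows held 2 and 0. The Ldhd window (chr8:111630337-111630586) held 1 CACGTG. A match in these letters is a description of the sequence and does not show that a factor binds there.

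Ldhb was lower in every E17.5 cell than in any postnatal cell, and it was among the most abundant transcripts of both postnatal stages. At E17.5 it ran from 5.64 to 620 CPM per cell, with a median of 42.8 CPM. At P2.5 it ran from 728 to 8150 CPM with a median of 2741 CPM, and all P2.5 cells stood above the highest E17.5 cell. At P6.5 it ran from 2943 to 7655 CPM with a median of 4574 CPM, within the P2.5 range but above the P2.5 median in all 47 cells. By mean FPKM, which divides by gene length, Ldhb held place 1053 of all genes at E17.5, place 17 at P2.5 and place 7 at P6.5.

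In the counts summed over each stage, Ldhb made up 90.6 CPM at E17.5 (exact Poisson 95% interval 89.04 to 92.2), 2994 CPM at P2.5 (2991 to 2996) and 4703 CPM at P6.5 (4697 to 4710). These intervals cover the counting of reads only, and not differences between animals. The P2.5 sum was 33.04-fold the E17.5 sum, a log2 ratio of 5.05 (exact conditional Poisson 95% interval 5.02 to 5.07). The ratio of cell medians was larger, at a log2 of 6.001. Library 19 alone held 20.6% of the E17.5 Ldhb counts, and the log2 ratio was 5.33 without the cell with the most counts of the gene in each stage. Without libraries 8, 10, 15 and 16 it was 4.84. The P6.5 sum stood 1.57-fold above the P2.5 sum (log2 0.65, 0.65 to 0.65).

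**Figure D1:**
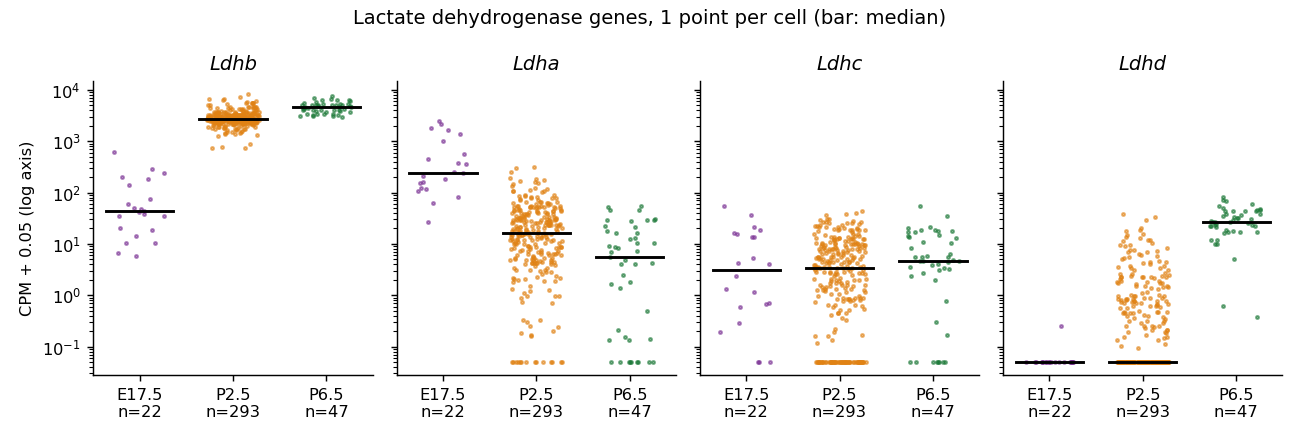
CPM of Ldhb, Ldha, Ldhc and Ldhd in each of 362 cells, plotted on a log axis after adding 0.05 CPM so that cells with no count appear at the bottom. Points are cells and bars are medians of the cells of a stage, 22 at E17.5 and 47 at P6.5. Every P2.5 cell is above every E17.5 cell for Ldhb, whereas the stages overlap for Ldha and Ldhc.

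Ldha went the other way. It was present in all 22 E17.5 cells, from 26.8 to 2468 CPM with a median of 243.4 CPM. At P2.5 the range was 0 to 321 CPM and the median 16.4 CPM, with a count in 95.2% of cells (exact Clopper-Pearson 95% interval 92.1 to 97.4%). At P6.5 it ran from 0 to 55.2 CPM with a median of 5.47 CPM, and 38 of 47 cells had a count (80.9%, 66.7 to 90.9%). After thinning every cell to 400000 counts, Ldha was seen in 84.6% of P2.5 and 61.7% of P6.5 cells, and still in all E17.5 cells. The stages overlapped: 63.1% of P2.5 cells were below the lowest E17.5 cell, and 3 cells were above the E17.5 median. By mean FPKM, Ldha was in the top 0.404% of gene rows at E17.5, and at places 4970 and 7707 at P2.5 and P6.5. The E17.5 mean was 403.7 FPKM and the cell median 148.5 FPKM, with 810 to 1625 FPKM in libraries 8, 10, 15 and 16.

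The stage sums of Ldha were 788 CPM at E17.5 (783.0 to 792.3), 35.8 CPM at P2.5 (35.6 to 36.1) and 11.7 CPM at P6.5 (11.4 to 12.1). Ldha was thus 21.985-fold lower in the P2.5 sum than in the E17.5 sum, a log2 ratio of −4.46 (−4.47 to −4.45). The size of this difference depended on the 4 E17.5 libraries low in germ cell markers: the log2 ratio was −2.88 without them. Library 8, one of the 4, held 31.9% of the E17.5 Ldha counts. From P2.5 to P6.5 the sum was 3.05-fold lower (log2 −1.61, −1.65 to −1.57), with 35 of 47 P6.5 cells below the P2.5 median.

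Set against all measured genes, 22.6% were at least 2-fold higher and 32.4% at least 2-fold lower in the P2.5 sum than in the E17.5 sum, where Ldhb and Ldhd were among the higher, Ldha among the lower, and Ldhc in neither group. In 0.258% of genes (45 of 17421) every P2.5 cell was above every E17.5 cell, as for Ldhb, and in 0.0230% every P2.5 cell was below. Between P6.5 and P2.5, 6.90% of genes were at least 2-fold higher, as Ldhd was, and 9.30% at least 2-fold lower, as Ldha was, and Ldhb and Ldhc were in neither group. Between P6.5 and E17.5 the shares were 22.7% higher, with Ldhb and Ldhd, and 39.5% lower, with Ldha. Every P6.5 cell was above every E17.5 cell in 2.28% of genes, Ldhb and Ldhd among them, and below in 0.849%. The members were chosen on these contrasts, so their standing is not evidence of its own, and the comparisons share cells.

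The balance of the common subunits in single cells was read as the Ldhb share, which is Ldhb over the sum of Ldha and Ldhb in deposited FPKM. At E17.5 the share had a median of 25.3% (exact order-statistic 95% interval 16.8 to 39.4%), quartiles of 17.7 and 36.5%, and a range of 0.265 to 80.04%. At P2.5 the median was 99.6% (99.49 to 99.67%) and the lowest cell stood at 91.3%. At P6.5 the median was 99.9% and the lowest cell stood at 99.03%. The highest E17.5 share was thus below the lowest postnatal one. Ldhb exceeded Ldha in 3 of 22 E17.5 cells and in every P2.5 and P6.5 cell.

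Stated as a ratio, Ldhb over Ldha had a median of 0.338 at E17.5, of 227.96 in the P2.5 cells with Ldha above 0, and of 810 in the 38 such P6.5 cells. Ldha FPKM was listed at 0 in the other 16 P2.5 and 9 P6.5 cells. The summed FPKM of Ldha, Ldhb and Ldhc had medians of 277.965, 2614 and 4308 at the 3 stages. The later stages thus had a larger share of LDH transcripts in the library as well as another leading subunit.

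**Figure D2:**
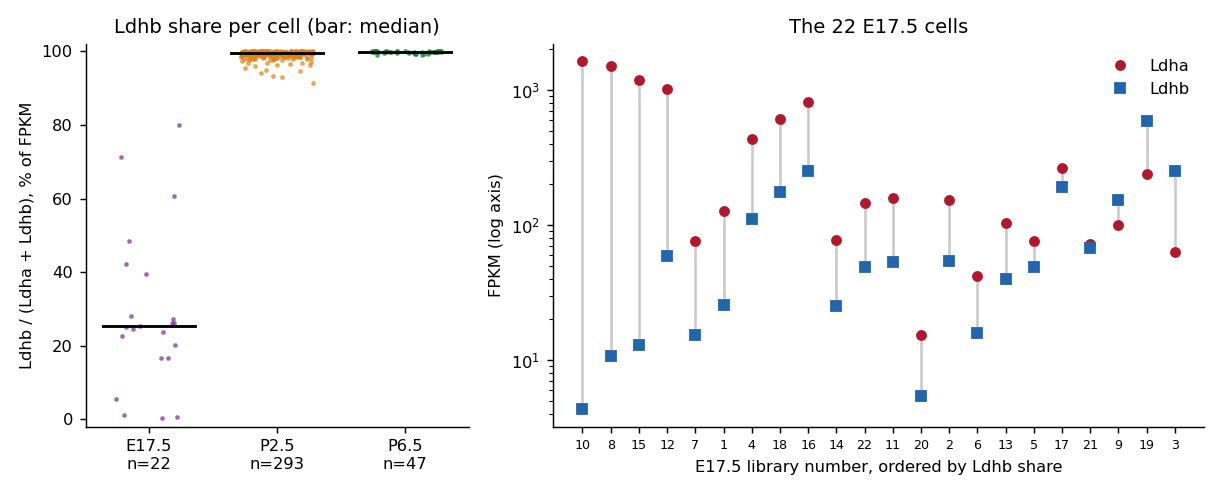
Left, the Ldhb share of Ldha plus Ldhb FPKM in each cell, in percent, with bars at the medians of 25.3, 99.6 and 99.9%. Right, Ldha (circles) and Ldhb (squares) FPKM on a log axis in each of the 22 E17.5 libraries, ordered by Ldhb share; Ldhb is the higher of the pair in libraries 9, 19 and 3.

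The 22 E17.5 cells were not alike. Libraries 3, 19 and 9 had Ldhb shares of 80.04, 71.2 and 60.7%, and library 21 stood near parity at 48.4%. In library 3 the share went with low Ldha (62.6 FPKM) and Ldhb of 251.08 FPKM, and in library 19 with the highest Ldhb of the stage, 585.5 FPKM, beside Ldha of 236.9 FPKM. Granulosa and pregranulosa markers summed to 0.156 CPM in library 3, 10.4 CPM in library 9 and 1297 CPM in library 19; their part in the Ldhb of library 19 was not tested. At the other end, libraries 10, 8 and 15 had shares of 0.265, 0.712 and 1.07%.

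Libraries 10, 8 and 15 are 3 of the 4 low in germ cell markers, and these 4 had Ldha of 1364 to 2468 CPM. In the other 18 Ldha ran from 26.8 to 1618 CPM with a median of 194.95 CPM, and Ldhb from 5.64 to 620 CPM with a median of 45.7 CPM. Their median Ldhb share was 26.2%, against 25.3% in all 22. Over the 22 cells Ldha was lower where the germ cell list was higher, with a Spearman rho of −0.84, and −0.72 in the 18. Counted from the lowest rho with this list, Ldha held place 15 of 8729 genes, and the median gene had 0.06. The points share a library's total as their denominator. For Ldhb the rho was 0.23 in the 22 and 0.03 in the 18. With the granulosa and pregranulosa list, Ldhb had a rho of 0.39 over the 22, and 0.48 without the 2 libraries farthest from the median of that list. Libraries 19, 16 and 18, which had 1297, 1263 and 1959 CPM of these markers, were 3 of the 4 highest in Ldhb, at 620, 284.9 and 197.3 CPM, and the part of those markers in it was not tested. Ldha and Ldhb themselves had a rho of −0.07 over the 22.

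**Figure D3:**
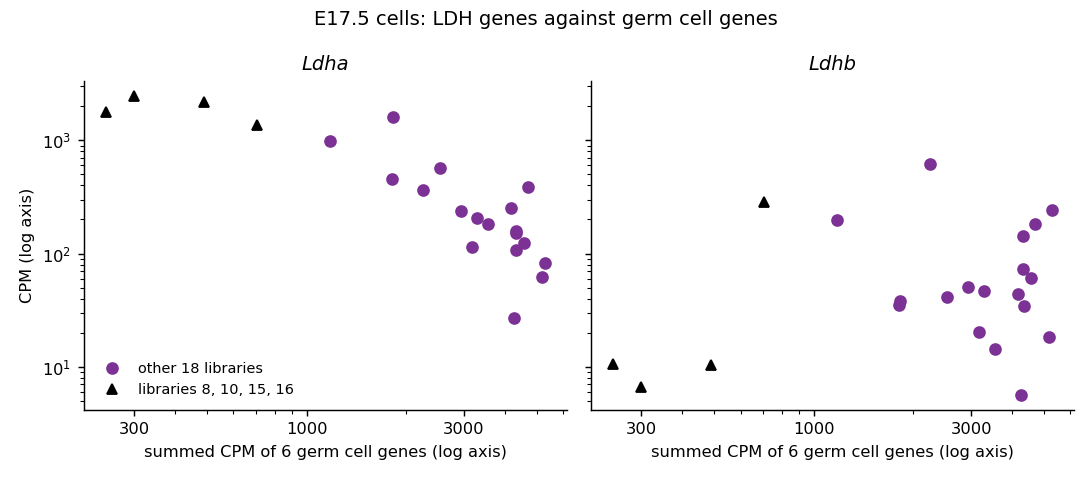
Ldha (left) and Ldhb (right) in CPM against the summed CPM of 6 germ cell genes in the 22 E17.5 libraries, both axes logarithmic. Triangles are libraries 8, 10, 15 and 16 and circles the other 18; Ldha is highest at the left end and lower towards the right, and Ldhb has a rho of 0.23.

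The E17.5 libraries also fell apart by number in their marker lists, a split seen in the data and not given by the labels. In libraries 1 to 10 mast cell markers other than Kit had a median of 3251 CPM, and in libraries 11 to 22 of 0.854 CPM. Medians of the oocyte growth list were 43.1 and 0.976 CPM. Ldhb had medians of 38.2 and 48.7 CPM in these sets, Ldha 216.4 and 299.98 CPM, and their ranges overlapped. With libraries 1 to 10 alone the P2.5 over E17.5 log2 ratio was 5.83 for Ldhb and −4.81 for Ldha, and with libraries 11 to 22 alone 4.63 and −4.10.

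Within P2.5, Ldhb was the most even member. Its coefficient of variation over cells was 0.348, against 1.41 for Ldha, and at P6.5 it was 0.244 against 1.28. The lowest 4 cells had 728, 751, 763 and 869 CPM of Ldhb, and the highest 3 had 8150, 7250 and 6725 CPM. The 3 cells highest in Ldha had 321, 306.1 and 248.98 CPM with Ldhb of 2334, 3276 and 2420 CPM, so that even these cells had shares of 91.3, 94.035 and 93.4%. Their germ cell lists summed to 4143, 4126 and 4517 CPM, above the stage median. Granulosa lists summed to 12.5, 5.38 and 8.52 CPM in these cells, below the stage median of 41.6 CPM. Erythroid lists summed to 2.25, 1.57 and 13.4 CPM, against a stage median of 9.395 CPM. The part of other cell types in their Ldha was not tested. Ldha and Ldhb had a rho of 0.03 over the P2.5 cells.

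At P6.5, Ldhb was higher in the cells with more transcript of oocyte growth genes. The list held Gdf9 and Bmp15 (secreted oocyte growth factors), Zp1, Zp2 and Zp3 (egg coat), Padi6, Nlrp5 and Ooep (subcortical maternal complex and cytoplasmic lattices) and Npm2 (an oocyte histone chaperone). It summed to between 16762 and 64909 CPM per P6.5 cell. The lowest Ldhb cells, 10, 31 and 43, had 2943, 3040 and 3045 CPM with growth sums of 16762, 23270 and 21122 CPM. The highest, 32, 23 and 25, had 7655, 6948 and 6514 CPM with growth sums of 64909, 61692 and 60010 CPM.

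Over the 47 P6.5 cells the Spearman rho of Ldhb with the growth sum was 0.88, and 0.86 without the 2 cells farthest from the median growth sum. Among 8725 genes outside the list, none had a higher rho with it, and the median gene had −0.09. Taken singly, Zp3, Padi6, Gdf9 and Zp1 had a rho with Ldhb of 0.88, 0.87, 0.84 and 0.81, Zp2, Npm2, Bmp15 and Ooep of 0.72, 0.65, 0.595 and 0.47, and Nlrp5 of 0.05. The rho of Ldhb with gene counts per spike-in count, a reading of RNA per cell, was 0.54, and with the meiotic prophase list −0.64. At P2.5 the rho of Ldhb with the growth list was 0.35, at place 597 of 8744 genes, below its rho of 0.52 with the germ cell list and of 0.44 with the meiotic prophase list. With gene counts per spike-in count it was 0.07 there. All these values are descriptions of cells that share a stage sample and a library total.

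**Figure D4:**
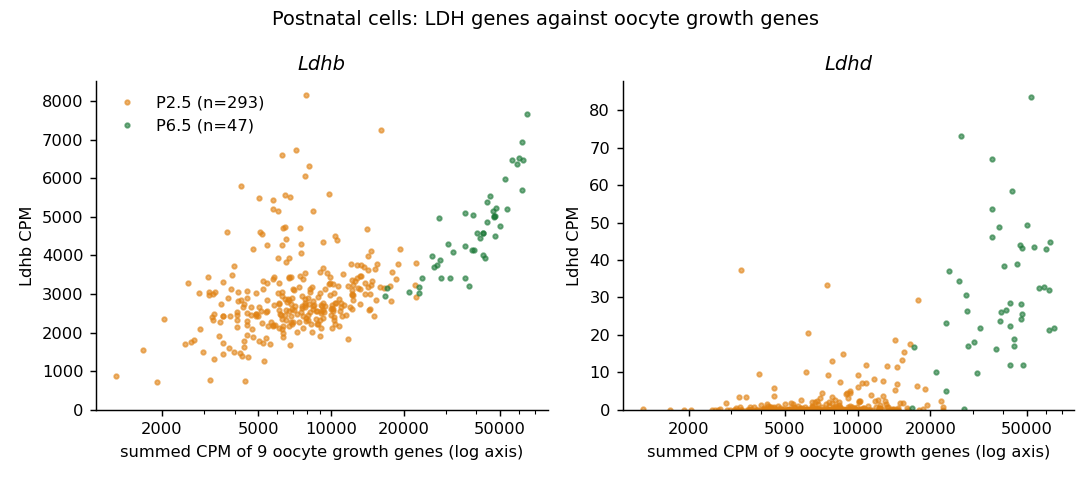
Ldhb (left) and Ldhd (right) in CPM against the summed CPM of 9 oocyte growth genes (log axis) in P2.5 and P6.5 cells, 1 point per cell. At P6.5 Ldhb climbs with the growth sum from 2943 to 7655 CPM, and at P2.5 the points scatter widely; Ldhd is at or near 0 in most P2.5 cells.

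Ldhc, the subunit gene of male germ cells, was low at all stages. At E17.5 it ran from 0 to 54.6 CPM with a median of 3.11 CPM, at P2.5 from 0 to 43.5 CPM with a median of 3.28 CPM, and at P6.5 from 0 to 55.1 CPM with a median of 4.59 CPM. The stage sums were 7.36, 7.37 and 8.89 CPM. The log2 ratio was 0.00 from E17.5 to P2.5 (−0.09 to 0.09) and 0.27 from P2.5 to P6.5 (0.22 to 0.32). The first of these moved with how cells were combined and chosen: it was −0.59 from means of CPM over cells, −1.03 from mean FPKM, −0.25 without libraries 8, 10, 15 and 16, −0.65 with E17.5 libraries 1 to 10 alone and 0.91 with libraries 11 to 22 alone. After thinning, 11 of 22 E17.5 cells, 57.7% of P2.5 cells and 68.1% of P6.5 cells had a count. Within E17.5, libraries 1 to 10 had a median of 9.32 CPM, libraries 11 to 22 one of 0.575 CPM, and their ranges overlapped.

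Ldhd, the mitochondrial D-lactate dehydrogenase gene, was all but missing at E17.5, patchy at P2.5 and present in every P6.5 cell. Only 2 counts were found at E17.5, both in library 6, which is 0.0142 CPM of the sum (0.001715 to 0.0511). At P2.5, 49.8% of cells had a count (43.96 to 55.7%), and the level ran from 0 to 37.4 CPM with a median of 0. At P6.5 all 47 cells had one, from 0.329 to 83.6 CPM with a median of 26.6 CPM. After thinning, 22.5% of P2.5 and 97.9% of P6.5 cells had a count. The P6.5 sum of 31.5 CPM (30.9 to 32.005) was 15.7-fold the P2.5 sum of 2.01 CPM (1.95 to 2.07), a log2 ratio of 3.97 (3.92 to 4.02). The P2.5 over E17.5 log2 ratio of 7.15 rests on those 2 counts, with a counting interval of 5.29 to 10.19, and was 6.63 without libraries 8, 10, 15 and 16.

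The 3 P2.5 cells highest in Ldhd had 37.4, 33.3 and 29.2 CPM, within the P6.5 range. Their growth sums were 3286, 7483 and 17747 CPM, against a stage median of 7098 CPM. The P6.5 cells lowest in Ldhd were cell 41, with 0.329 CPM and Ldhb of 3747 CPM, and cell 10, with 0.577 CPM and the lowest Ldhb of its stage. Over the 47 cells Ldhd had a rho of 0.33 with the growth sum, and 0.25 without the 2 cells farthest from its median. Of the exonic bases of all Ldhd transcripts together, 42.15% lie within exons of Znrf1 on the opposite strand. The sources used here do not say whether the counting used strand, so reads of the pair cannot be told apart there. The coding transcript Ldhd-201, of 2273 bases, shared no stretch of 50 bases with another gene on either strand. Znrf1 itself stood at 18.9, 4.20 and 2.67 CPM in the 3 sums, and the part of its reads in the Ldhd values was not tested.

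Few counts stood in the rows of copies of the LDH genes. No stretch of 150 bases of the 4 transcripts, the length of 1 read, occurred in a transcript of another gene. At 50 bases, 16.65% of Ldha stretches were shared with 14 other genes and 27.01% of Ldhb stretches with 1, Gm5514, and none of Ldhc or Ldhd. Rows of these copies held 0.398, 1.17 and 0.744% of the counts of Ldha and its copies at the 3 stages, and 2.22, 1.27 and 0.684% of those of Ldhb and its copy. The sources used here do not say how reads that fit several genes were handled. These rows therefore cannot show how many reads the copies gave.

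The values above are shares of a library and do not measure transcripts per cell. Gene counts per spike-in count had medians of 81.3, 465 and 3203 at the 3 stages. Scaled by these medians, and assuming the same amount of spike-in per cell, the log2 ratio of Ldhb was 7.56 from E17.5 to P2.5 and 3.44 from P2.5 to P6.5. For Ldha it was −1.94 and then 1.18, so that Ldha was lower as a share of the P6.5 library yet higher per spike-in. The −1.94 takes in all 22 E17.5 libraries. As a share, the first Ldha ratio was −2.88 without libraries 8, 10, 15 and 16, against −4.46 with them. The spike-in scaling was not run without these libraries, so the size of the Ldha difference per spike-in is not given for the others. Ldhc was higher per spike-in by a log2 of 2.52 and then 3.05. The scaling itself adds a log2 of 2.515 and then 2.785 to every gene, and as a share Ldhc had log2 ratios of 0.00 and 0.27.

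Genes whose levels followed Ldhb and Ldha most closely were sought among 8751 genes by the Pearson correlation of log2(CPM + 1). Over the P2.5 cells, Ldhb was closest to Kpna2 (0.717), Parl (0.708), Dgcr6 (0.654), Bsg (0.652) and Dppa3 (0.633). Bsg encodes basigin, the partner that carries lactate transporters to the membrane, and Dppa3 encodes the germline protein STELLA. By Spearman rho, Bsg and Dgcr6 were not among the 5 genes nearest to Ldhb at P2.5. Over all 362 cells the nearest were Dppa3 (0.925), Oas1h (0.908), Tesc (0.904), Padi6 (0.899) and Xdh (0.899), with the stages pooled. Ldha had weaker neighbours at P2.5, Tsc22d3 (0.398), Isyna1 (0.398), Mpdu1 (0.387), Rasd2 (0.381) and Adad2 (0.379), and over all cells Tagln2 (0.505), Gna15 (0.50), Tsc22d3 (0.499), Ptpn7 (0.498) and Hs3st1 (0.496).

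Around the LDH genes, 7 lists of 56 genes on lactate and pyruvate were read in the same way. Of 51 measured in the first comparison, 7 were higher by 2-fold or more at P2.5 and 18 lower, beside 22.6 and 32.4% of all measured genes. Without libraries 8, 10, 15 and 16 the counts were 8 and 14. Of 47 measured in the second, 2 were higher at P6.5 and 3 lower, beside 6.90 and 9.30% of all. The share lower at P2.5 was near that of all genes, and the counts of single lists are given as descriptions. All measured genes had a median log2 ratio of −0.26 in the first comparison and −0.18 in the second. None of these list genes with at least 5 CPM differed in the second comparison by as much as Ldhd.

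Of 7 measured carriers, 4 were lower by 2-fold or more at P2.5 and 0 higher (median log2 ratio −1.28), against 32.4% of all genes lower; 3 were lower without libraries 8, 10, 15 and 16. Slc16a3, the lactate exporter MCT4 of glycolytic cells, stood at 92.7, 1.54 and 1.15 CPM at the 3 stages, and Slc16a1, the broader carrier MCT1, at 140.7, 36.4 and 55.7 CPM. Slc16a7 (2.72, 0.157 and 0.0733 CPM) and Emb, embigin (16.1, 6.32 and 18.3 CPM), were the others, Slc16a7 being named after its values were seen. The cell medians of Emb at E17.5 and P2.5 were 4.53 and 3.61 CPM, less than 2-fold apart. Those of Slc16a3 were 13.04 and 0.163 CPM, of Slc16a1 83.3 and 29.1 CPM, and of Slc16a7 0.372 and 0 CPM. Bsg was at 365, 532 and 659 CPM. From P2.5 to P6.5, 1 of 6 was higher to that extent, Emb, and 0 lower (median 0.12). The mitochondrial pyruvate carrier genes Mpc1 and Mpc2 differed by less than 2-fold in both comparisons.

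Of the genes that form pyruvate, 2 of 6 measured were lower to that extent at P2.5 and 0 higher (median −0.29), a share near the 32.4% of all genes. Without libraries 8, 10, 15 and 16, 2 were lower and 1 higher. Pklr, the liver and red cell pyruvate kinase, stood at 58.8, 0.0535 and 0 CPM, and Me1, cytosolic malic enzyme, at 58.2, 10.3 and 75.7 CPM, so that Me1 was the 1 of 5 with a higher level at P6.5, and 0 were lower (median 0.04). Pkm, the main pyruvate kinase, was at 497, 964 and 749 CPM. Erythroid markers were also highest at E17.5, and their part in the Pklr values was not tested.

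Of the genes that oxidise or carboxylate pyruvate, 1 of 13 was higher by 2-fold or more and 3 lower at P2.5 (median −0.46), beside 22.6 and 32.4% of all genes, and 2 were lower without libraries 8, 10, 15 and 16. Pdk1, a kinase that inhibits pyruvate dehydrogenase, was the higher, at 67.1, 155.1 and 111.98 CPM. Pdp2, an opposing phosphatase (11.95, 3.79 and 2.08 CPM), Pcx, pyruvate carboxylase (264.7, 94.2 and 123.1 CPM), and Pdha2, a germline dehydrogenase subunit (8.43, 3.78 and 0.726 CPM), were the lower. In cell medians at E17.5 and P2.5, Pdp2 (1.88 and 1.29 CPM) and Pdha2 (1.75 and 0.999 CPM) differed by less than 2-fold. Those of Pcx were 191.6 and 87.96 CPM. Pdha2, named after its values were seen, was also the 1 of 13 lower at P6.5, and 0 were higher (median −0.46).

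In the shuttles that pass cytosolic NADH to mitochondria, 3 of 10 were higher by 2-fold or more and 4 lower at P2.5 (median −0.11), beside 22.6 and 32.4% of all genes. Without libraries 8, 10, 15 and 16 these counts were 3 and 3. From P2.5 to P6.5, 0 were higher and 1 lower (median −0.12), the 1 being the aspartate carrier Slc25a13. The paired transaminases differed: cytosolic Got1 stood at 32.4, 7.26 and 6.36 CPM, and mitochondrial Got2 at 77.6, 196.6 and 189.5 CPM. Gpd2, the mitochondrial glycerol phosphate dehydrogenase, was at 15.3, 1.65 and 0.638 CPM, and Gpd1l, a cytosolic relative, at 12.03, 39.8 and 66.6 CPM. The other lower genes were the mitochondrial carriers Slc25a12 (41.96, 14.9 and 22.2 CPM) and Slc25a11 (101.8, 45.4 and 45.2 CPM), and the other higher one was Gpd1 (0, 1.21 and 0.882 CPM), with Slc25a11 and Gpd1 named after their values were seen. The lower sum of Slc25a12 was not seen in its cell medians, which were 11.6 and then 11.7 CPM. The malate dehydrogenases, LDH's closest enzyme relatives, differed by less than 2-fold, Mdh1 at 139.2, 133.1 and 141.8 CPM and Mdh2 at 424, 658 and 505 CPM. So did Uevld, whose protein carries an LDH-like domain, at 20.5, 34.7 and 32.9 CPM, and the testis gene Ldhal6b had no count at any stage.

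Among the D-lactate and glyoxalase genes, D2hgdh, a dehydrogenase of 2-hydroxyglutarate, stood at 37.3, 13.4 and 11.03 CPM and was lower by 2-fold or more at P2.5. Glo1 and Hagh, the glyoxalase enzymes that make D-lactate from methylglyoxal, differed by less than 2-fold, at 115.2, 106.7 and 81.98 CPM and at 49.2, 66.955 and 45.8 CPM, while Ldhd was 15.7-fold higher at P6.5.

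Of 10 known regulators of LDH genes, 3 were higher by 2-fold or more and 3 lower at P2.5 (median 0.65), beside 22.6 and 32.4% of all genes; 2 were lower without libraries 8, 10, 15 and 16. Epas1, HIF-2α, stood at 0.0708, 26.2 and 29.5 CPM, and Egln1, the oxygen sensor PHD2, at 4.22, 14.1 and 19.7 CPM. Myc was at 25.9, 1.83 and 0.337 CPM and Mycn at 18.7, 0.0912 and 0.152 CPM, both highest at E17.5. Their part in the Ldha values was not tested. Esrra, a nuclear receptor of oxidative metabolism (0.566, 2.58 and 1.05 CPM), and its coactivator Ppargc1a (4.73, 0.347 and 0.12 CPM) were the others, named after their values were seen. Hif1a differed by less than 2-fold, at 119.4, 190.8 and 233.04 CPM. From P2.5 to P6.5, 1 of 8 measured was lower to that extent, Myc, and 0 were higher (median −0.13).

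**Figure D5:**
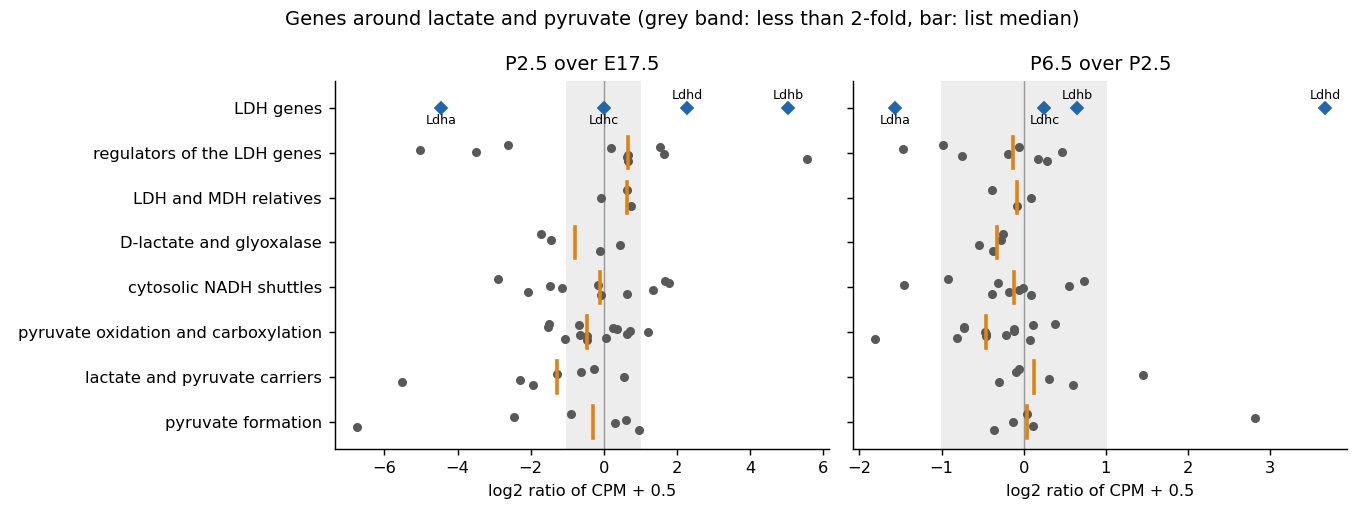
Log2 ratio of stage sums after adding 0.5 CPM for the 4 LDH genes (diamonds) and the measured members of 7 lists (grey points, bar at the list median), P2.5 over E17.5 on the left and P6.5 over P2.5 on the right. The grey band covers ratios under 2-fold; most list members lie inside it on the right, and Ldha and Ldhd lie outside it in both panels.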

How the data were processed

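Smart-seq2 libraries of 386 single cells were used, 317 of them from P2.5. Raw counts of each gene were deposited by the authors. FPKM values, scaled by gene length and by library, were also deposited by the authors. The submitters' processing notes name STAR 2.7.10b, HTSeq 0.13.5, RSEM 1.3.3 and mm10. Not given in the sources used here are how reads that fit several genes were handled, whether strand was used and which tool made which table. The FPKM columns of E17.5 libraries 4 and 7 matched the counts of library 2 slightly better than their own (Pearson r 0.8659 against 0.8596, and 0.8606 against 0.8296).

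Library sizes leave out the 92 spike-in rows. Pairs of libraries with a median chi-square under 1.5 were summed as 1 cell. These 24 pairs had 0.686 to 1.03, and the closest pair not summed had 2.79, which left 293 P2.5 cells. Every cell passed a minimum of 100000 counts and 2000 genes. Doublets were not called, and libraries with markers of other cell types were kept. Stage sums are counts added over cells and scaled to CPM. A gene was measured if it had counts in 3 or more cells and 1 CPM or more at either stage, and called at 2-fold after adding 0.5 CPM. Intervals are at 95%. The Poisson intervals cover counting only, and the reads carry no molecular identifiers, so reads are not independent molecules. The Clopper-Pearson and order-statistic intervals take the cells of a stage as independent, although cells are not replicates of a stage. Named were the 4 genes, up to 3 members at either end of each list and comparison with at least 5 CPM in a stage, and the 5 genes most like Ldhb and Ldha. These neighbours had at least 20 CPM and a count in at least 50% of the cells of a stage, and unnamed gene models, pseudogenes and mitochondrial genes were left out. The members and lists were chosen with earlier results of these data known. The values of 1 list gene are not reported here. Promoter letters are from RefSeq, and protein sequences were not used here. Scripts used Python 3.11.15, SciPy 1.17.1, R 4.3.3, edgeR 4.0.16 (TMM factors) and DESeq2 1.42.0 (median-of-ratios factors). The calls were also run on simulated data, with both stages drawn from the P2.5 profile and known folds given to some genes. Those data held no difference in cell types between stages and no differences between animals, so they cannot speak to either. Alternatives covered scaling, weighting of cells, low-value filters and leaving out libraries.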

Additional observations from a re-analysis of the deposited data

How the results depend on the processing

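No paired analysis was possible because the numbers in the titles only count cells and the stage ratios come from no test. The directions of the Ldha and Ldhb ratios held under every alternative run except 1: Ldha from P2.5 to P6.5 turned from a log2 ratio of −1.61 to 1.18 per spike-in count, a scaling that adds a log2 of 2.79 to every gene. Its other values were −1.37 (TMM), −1.27 (median-of-ratios), −1.40 (mean FPKM) and −1.37 (mean CPM over cells). From E17.5 to P2.5, Ldha was at −4.09 (TMM), −4.24 (median-of-ratios), −1.94 (spike-in), −4.34 (mean FPKM), −4.37 (mean CPM), −3.89 (median CPM), −2.88 (without libraries 8, 10, 15 and 16) and −4.21 (without the cell with most counts). Ldhb was at 5.41, 5.27, 7.56, 4.82, 4.90, 6.001, 4.84 and 5.33 in the same order. Using libraries 1 to 10 or 11 to 22 alone, which was chosen after seeing the data, gave −4.81 and −4.10 for Ldha and 5.83 and 4.63 for Ldhb. Leaving out each E17.5 library in turn gave −4.56 to −4.08 for Ldha, 4.89 to 5.34 for Ldhb, −0.12 to 0.34 for Ldhc (with −1.03 from mean FPKM and 0.91 with libraries 11 to 22 alone) and a share of 25.1 to 25.4%. From P2.5 to P6.5, Ldhb was at 0.89 (TMM), 0.99 (median-of-ratios), 3.44 (spike-in), 0.59 (mean FPKM), 0.74 (median CPM) and 0.64 (without the top cell). The Ldhb share at E17.5 was 17.3% from counts, 19.9% in summed FPKM and 26.2% without those 4 libraries, against 25.3%. It was 99.4% at P2.5 from counts, and 99.3 and 99.8% in summed FPKM at P2.5 and P6.5. List genes at least 2-fold higher at P2.5 numbered 13 with TMM and 39 per spike-in against 7, and those lower 6 per spike-in and 14 without libraries 8, 10, 15 and 16 against 18. At P6.5 they numbered 45 per spike-in against 2 higher, and against 3 lower 5 (0.1 CPM added), 1 (at least 5 CPM) and 0 (spike-in). No value could be had for Ldhd with medians, or at E17.5 in FPKM or without library 6, where it is at 0. Among genes most like Ldhb and Ldha at P2.5, 3 of 5 remained with Spearman for each. Those lost were Bsg and Dgcr6 for Ldhb, and Tsc22d3 and Rasd2 for Ldha. Over all cells 1 of 5 remained for Ldhb (Dppa3) and 2 of 5 for Ldha. Apart from the P6.5 Ldha reversal, whose scaling assumes equal spike-in per cell, the causes of these shifts were not tested.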
